A study of Mus musculus with 64 samples.

Results

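Lipid droplets store triglycerides, and the 10 genes described here encode proteins that coat these droplets, release fatty acids from them or fuse them. They are the perilipins Plin2, Plin3, Plin4 and Plin5, the lipase gene Pnpla2 with its cofactors Abhd5 and G0s2, and the CIDE genes Cidea, Cideb and Cidec. The genes were chosen by name, with the hippocampal response of Plin4 and Pnpla2 already known, and all 10 were found by Ensembl gene ID among the 55414 genes of the acute count table and the 55573 genes of the continuous count table. RNA-seq was performed on hippocampus and liver of adult male wild-type (WT) mice and Angelman syndrome (AS) mice of 10 to 18 weeks of age, all F1 offspring of C57BL/6J fathers and 129sv mothers. AS mice inherit from their mother a Ube3a allele lacking exon 5 (Ube3a m-/p+), while the paternal allele remains. In the acute experiment, mice received a subcutaneous injection of vehicle or 3 mg/kg corticosterone (CORT), the main glucocorticoid of mice, and hippocampi were collected after 3 h from 6 mice in each of the 4 groups. In the continuous experiment, mice carried a subcutaneous pellet with 20 mg CORT or a vehicle pellet of cholesterol for 5 days, and hippocampus and liver libraries were made for 5 mice in each group. The hippocampal libraries H9 (AS vehicle) and H13 (WT vehicle) of this experiment, which are technical outliers by the methods of the study, did not enter the comparisons. Thus 4 vehicle mice of each genotype remained there. Library numbers are separate for the acute and the continuous experiment.

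Droplets are wrapped by perilipins, which control access of lipases to the stored fat. PNPLA2, also called ATGL, removes the first fatty acid from a triglyceride, ABHD5 activates it and G0S2 inhibits it, so that these proteins together set the rate of lipolysis. CIDE proteins let small droplets merge into larger ones. The liver stores and exports much fat, whereas in brain droplets are found mainly in glia and at low abundance. Glucocorticoids act through the glucocorticoid receptor (GR), which binds DNA at palindromic response elements and changes lipid handling in many tissues.

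Plin4 and Plin5 are direct neighbours on chromosome 17 of GRCm38 (mm10). Both lie on the minus strand, Plin4 from 56100591 to 56109803 and Plin5 from 56111601 to 56117596, with 1797 bases between them, and Plin3 (56277476 to 56292873) follows on the same strand after 159879 bases. Pnpla2 (ENSMUSG00000025509) lies on the plus strand of chromosome 7 from 141455198 to 141460743. Abhd5 is on chromosome 9 (122351608 to 122381524), G0s2 on chromosome 1 (193272161 to 193273217) and Plin2 on chromosome 4 (86648386 to 86670060). Cideb is on chromosome 14 (55754050 to 55758458) and Cidec on chromosome 6 (113424634 to 113435760). The sequence just before the start of the genes that CORT raised most is shown for these neighbours and for Pnpla2, so that the promoters of genes which rose together in hippocampus (Plin4, Pnpla2) or liver (Plin4, Plin5) can be compared. Sequences are from RefSeq on GRCm38.p6, run in the direction of transcription, end before the start of the gene and have capitals where the nuclear receptor motif AGGTCA was found on either strand. The Plin4 stretch is chr17:56109804-56110032, that of Pnpla2 is chr7:141454938-141455187 and that of Plin5 is chr17:56117597-56117798.
Plin4: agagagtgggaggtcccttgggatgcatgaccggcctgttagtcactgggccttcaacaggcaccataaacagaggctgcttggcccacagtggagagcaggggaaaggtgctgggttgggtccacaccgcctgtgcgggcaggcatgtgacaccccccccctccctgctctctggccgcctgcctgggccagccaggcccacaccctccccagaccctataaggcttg
Pnpla2: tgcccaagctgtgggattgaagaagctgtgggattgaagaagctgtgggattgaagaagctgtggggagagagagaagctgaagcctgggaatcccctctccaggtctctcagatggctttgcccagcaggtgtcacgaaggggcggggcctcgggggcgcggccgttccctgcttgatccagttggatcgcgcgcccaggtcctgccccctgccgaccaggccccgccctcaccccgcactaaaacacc
Plin5: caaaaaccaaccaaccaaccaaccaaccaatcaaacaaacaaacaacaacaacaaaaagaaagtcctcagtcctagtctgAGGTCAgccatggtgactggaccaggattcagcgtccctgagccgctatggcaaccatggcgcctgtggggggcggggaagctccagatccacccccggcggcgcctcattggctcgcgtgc

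Motifs were searched on both strands in windows of 300 bases (250 before to 50 after the start), of which RefSeq gave 11 for 9 of the 10 genes. The full palindrome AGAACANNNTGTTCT occurred in none of these windows, and in 0.00913% of all 32851 promoter windows of the table. Its shorter core ACANNNTGT, held by 6.85% of all windows, and the forkhead motif GTAAACA, held by 3.65%, were also not present in the windows of these genes. The single-arm GR motif TGTTCT (19% of all windows) occurred only in the Cideb window, at 2 places. AGGTCA (16.3% of all windows) was found in the windows of Plin2, Plin5 and Abhd5, and its direct repeat AGGTCANAGGTCA (0.0396% of all windows) in none. The capitals in the Plin5 sequence stand 170 to 165 bases before 1 RefSeq start, which differs from the annotated start at which the printed stretch ends. In the window of another RefSeq start of Plin5, AGGTCA lay 13 to 18 bases after the start. The Plin4 and Pnpla2 windows held none of these letters, which says nothing about sites elsewhere.

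Between 18612550 and 21783009 reads per library were counted on genes, and 3 counts, taken as the floor, equal 0.138 to 0.161 CPM on that scale. Levels are given in CPM scaled to those reads on genes past the low-count filter, times the TMM normalization factor of the library. The GR target Fkbp5 rose with CORT in each set and genotype, from 64.0 ± 5.01 to 113 ± 10.2 CPM in acute WT hippocampus (SD, n = 6) and from 19.04 ± 12.5 to 205 ± 23.5 CPM in WT liver (SD, n = 5), and so did the GR target Tsc22d3. Ube3a was lower in AS than WT liver (log2 fold change of -0.55 with vehicle, adjusted p = 0.0191), but its count over all exons did not differ in hippocampus (-0.06 with acute vehicle, adjusted p = 0.895), where it therefore does not check the genotype label. The 5 hepatocyte markers summed to 90307 CPM or more in every liver library and to 117 CPM or less in the hippocampal libraries. The 5 hippocampal neuron markers summed to 7998 CPM or more in the hippocampal libraries of the fits and 194 CPM or less in liver, but to only 2537 CPM in H9 and 3180 CPM in H13. Adipocytes, in which several of the 10 genes are abundant, left little RNA: the 7 adipocyte markers summed to 0.286 to 1.48 CPM in hippocampus and to 2.45 to 4.91 CPM in liver, nearly all of it Fabp4. Lep, Retn, Plin1, Adipoq, Cfd and Ucp1 had no group mean above 0.0619 CPM in liver. In these bulk libraries, a change in the number of cells of a type and a change of RNA per cell cannot be told apart.

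In vehicle mice, the 2 tissues ranked the genes differently when counts were scaled to exon length (CPM per kb, mean ± SD over both genotypes). In acute hippocampus Pnpla2 was highest at 8.75 ± 1.60 CPM per kb (n = 12), followed by Cidea (5.55 ± 0.881), G0s2 (4.03 ± 0.573) and Plin3 (3.40 ± 0.624). Cideb, Abhd5, Plin2 and Plin4 had means between 1.09 and 2.43 CPM per kb. Among these, the ranges of Cideb and Abhd5 overlapped, as did those of Plin2 and Plin4, whereas every library had more Abhd5 than the highest Plin2 value. Plin5 reached only 0.221 ± 0.0772. The continuous hippocampal mice had the same 4 genes on top, with Cidea (7.36 ± 0.482, n = 8) ahead of Pnpla2 (6.11 ± 0.590), and Plin5 (0.389 ± 0.123) beside Plin4 (0.378 ± 0.105). In liver, Cideb led with 152 ± 11.9 CPM per kb (n = 10), followed by Plin2 (91.9 ± 22.5), G0s2 (43.7 ± 11.4), Pnpla2 (22.4 ± 5.27), Plin5 (16.3 ± 2.99) and Plin3 (13.3 ± 1.28). The ranges of Cideb and Plin2 did not overlap, whereas those of every neighbouring pair from Plin2 to Plin3 in this order did.

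**Figure D1:**
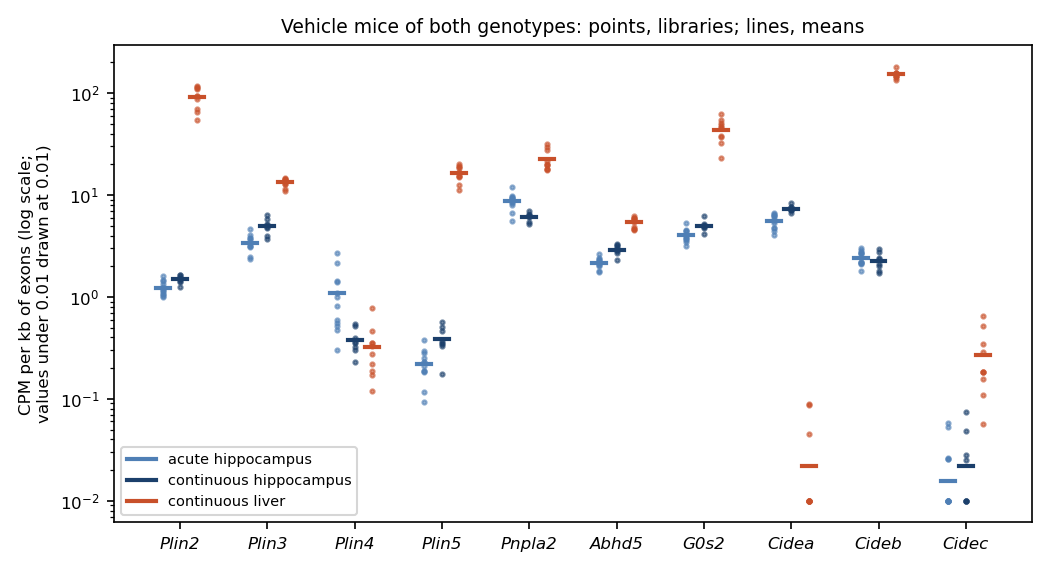
Level of each gene in vehicle mice, in CPM per kb of exons on a log scale; points are libraries of both genotypes (12 acute hippocampal, 8 continuous hippocampal, 10 liver), lines are means, and values under 0.01 are drawn at 0.01. Cideb, Plin2 and Plin5 stand far higher in liver than in hippocampus, and Cidea is seen in hippocampus but hardly in liver.

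The tissues also differed in which CIDE gene they expressed. Cidea, best known from brown fat, had 94 to 245 counts in every acute hippocampal library but 0 to 2 counts in the liver libraries, below the floor. Cidec, a gene of white fat, had at most 2 counts in the acute and 5 in the continuous hippocampal libraries, and 2 to 28 counts in liver. Cideb, which is known for the lipidation of very-low-density lipoproteins in liver, was abundant there. In a joint fit of the continuous hippocampus and liver, 93.1% of the 15937 genes differed between the tissues in vehicle mice, so that the members' calls carry little information: Cideb was higher in liver by a log2 difference of 6.95 (SE 0.107, adjusted p = 3.63e-36), Plin2 by 6.83 (SE 0.162), Plin5 by 6.27 (SE 0.166) and G0s2 by 4.01 (SE 0.191). For Plin4 the same fit gave 0.67 (SE 0.263, adjusted p = 0.0172), although its mean in the separately scaled sets was 2.18 ± 0.607 CPM in hippocampus and 1.87 ± 1.09 CPM in liver, and with H9 and H13 the difference was 0.24 (adjusted p = 0.396). The Plin4 call was also lost without the vehicle liver L2 (0.51, adjusted p = 0.0698) or without L4 (0.46, adjusted p = 0.0829).

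Calls of change refer to an adjusted p-value under 0.05 in edgeR's quasi-likelihood test, with adjustment over all genes tested in a contrast. After acute CORT, 8 of the 10 genes passed the filter on low counts in hippocampus, all but Plin5 (4 to 20 counts) and Cidec. Of these, 2 rose in WT mice and 0 fell, beside 1.48% of all 14611 genes called in either direction. In AS mice 3 rose and 0 fell, beside 17.9%. This AS background of 2612 genes was 150 with a term for 2 classes of libraries by low-quality reads (all 6 AS CORT mice and 2 of the 6 AS vehicle mice were in the upper class), 132 with only these 2 vehicle mice and 943 with a covariate for oligodendrocyte markers, while limma-voom gave 5056. In the acute libraries 2 of 5 microglia markers were called lower with CORT in each genotype, with sums of 199 to 248 CPM in WT vehicle and 195 to 217 CPM in WT CORT mice, and 190 to 242 and 171 to 214 CPM in AS mice. The median log2 fold change over the 5 was -0.30 in WT and 0.02 in AS mice. Of 5 markers each in AS mice, 1 astrocyte marker was called higher (sums of 1021 to 1176 CPM with vehicle and 1136 to 1251 CPM with CORT), 1 oligodendrocyte marker lower (2386 to 4642 and 1625 to 3216 CPM), 1 neuron marker lower (9750 to 13030 and 9722 to 11674 CPM), and 1 endothelial marker higher and 1 lower (136 to 164 and 119 to 135 CPM). In WT mice 1 astrocyte and 1 endothelial marker were called higher. The part of these cells in the acute results was not tested. The median log2 fold change was 0.07 in WT and 0.06 in AS mice over the 8 genes, and 0.00 and 0.01 over all genes tested.

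Plin4, whose protein coats small droplets and is best known from adipocytes, changed most in hippocampus. Its expression ranged in acute WT vehicle mice from 2.76 to 15.6 CPM with a median of 8.22, and in acute WT CORT mice from 20.02 to 45.6 CPM with a median of 28.4. In AS mice it ranged from 1.75 to 6.30 CPM (median 3.30) with vehicle and from 16.5 to 38.4 CPM (median 25.1) with CORT. The CORT and vehicle ranges did not overlap in either genotype. The log2 fold change was 1.88 (SE 0.297, adjusted p = 0.000385), 3.67-fold, in WT mice and 2.77 (SE 0.327, adjusted p = 2.7e-06), 6.82-fold, in AS mice.

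After 5 days of CORT the gap between the groups was wider. In WT vehicle mice Plin4 was measured at 2.30, 3.11, 2.99 and 2.11 CPM, and in WT CORT mice at 29.7, 52.2, 33.6, 26.7 and 20.2 CPM. AS vehicle mice had 1.74, 1.33, 1.86 and 2.04 CPM, and AS CORT mice 47.2, 76.7, 45.3, 87.3 and 47.3 CPM. Every CORT library thus exceeded every vehicle library. Plin4 rose by a log2 fold change of 3.62 (SE 0.298, adjusted p = 9.59e-07), 12.3-fold, in WT mice and of 5.12 (SE 0.317, adjusted p = 1.05e-08), 34.8-fold, in AS mice. In this set 9 of the 10 genes were tested, all but Cidec, and 2 rose and 0 fell in each genotype, beside 2.92% of all 14949 genes called in WT and 3.77% in AS mice. These 436 and 564 genes were 203 and 221 with H9 and H13, 796 and 807 with 1 surrogate variable, and 714 and 946 with the oligodendrocyte covariate. Astrocyte and microglia marker sums were lower with CORT in the same libraries, while the oligodendrocyte marker sums overlapped between vehicle and CORT. The 5 astrocyte markers summed to 1349 to 1522 CPM in WT vehicle and 971 to 1145 CPM in WT CORT mice, and to 1216 to 1325 and 989 to 1161 CPM in AS mice, with 3 of 5 called lower in each genotype. Of 5 microglia markers, 3 fell in WT and 2 in AS mice (221 to 247 CPM with vehicle and 184 to 206 CPM with CORT in WT, 203 to 228 and 178 to 201 CPM in AS mice). In WT mice 2 of 5 choroid plexus markers were also called lower (48.4 to 2796 CPM with vehicle and 5.19 to 86.6 CPM with CORT, median log2 fold change -2.03). Blood markers in WT mice summed to 40.9 to 58.8 CPM with vehicle and 75.3 to 186 CPM with CORT (median 1.29), with 0 of 5 called and 5 of 5 under an unadjusted 0.05. In AS mice 0 of 5 choroid plexus and 0 of 5 blood markers were called (medians 0.11 and 0.22), and 1 of 5 endothelial markers was called lower. The part of these cells in the hippocampal results was not tested.

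In liver, Plin4 was also near 2 CPM in vehicle mice and rose in both genotypes. WT vehicle mice had 2.02, 1.89, 1.59, 4.48 and 1.08 CPM, and WT CORT mice 4.56, 4.04, 5.56, 4.46 and 4.16 CPM. The ranges overlapped through L4, whose 4.48 CPM stood apart from the other WT vehicle mice. In AS mice 0.689 to 2.69 CPM with vehicle (median 1.26) became 3.82 to 8.001 CPM with CORT (median 7.16), without overlap. Plin4 rose by a log2 fold change of 1.04 (SE 0.332, adjusted p = 0.0327) in WT and 2.05 (SE 0.341, adjusted p = 0.000139) in AS mice. The WT call was lost in 6 of 20 fits that each left out 1 mouse (log2 fold change of 0.87 to 1.47, adjusted p up to 0.0813).

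**Figure D2:**
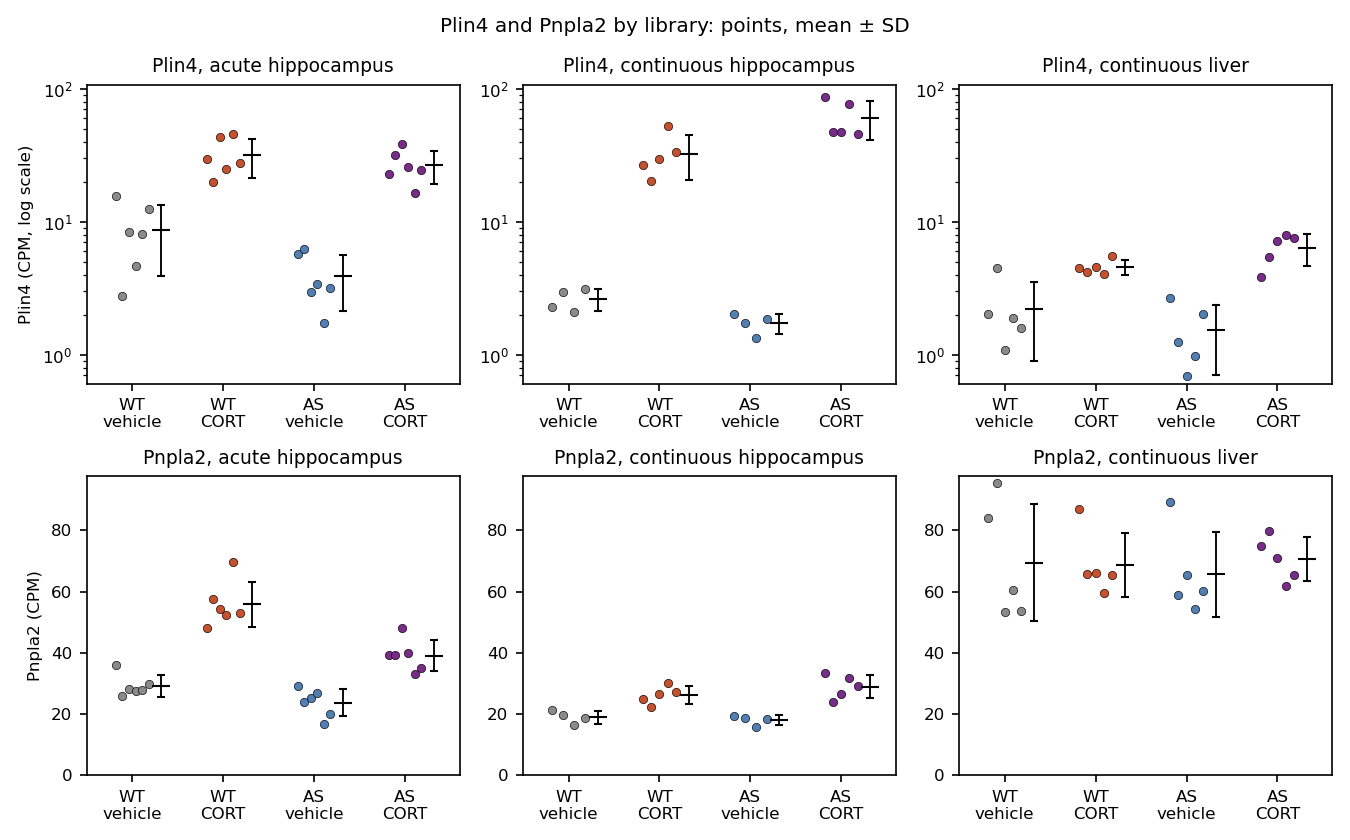
Plin4 (upper row, CPM on a log scale) and Pnpla2 (lower row, CPM) in each library of acute hippocampus, continuous hippocampus and liver; points are libraries and bars are mean ± SD. Within each genotype and among the libraries of the fits, CORT libraries lie above the vehicle libraries for both genes in hippocampus, while Pnpla2 overlaps between the groups in liver.

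Plin5 showed the reverse distribution. This perilipin is known to tie droplets to mitochondria in tissues that burn fat. In WT livers it was measured at 26.4, 34.9, 38.3, 31.9 and 42.4 CPM with vehicle and at 87.0, 86.3, 112, 67.0 and 95.6 CPM with CORT. AS livers had 23.2 to 40.2 CPM with vehicle (median 31.9) and 82.7 to 111 CPM with CORT (median 102). The groups did not overlap, and the log2 fold change was 1.37 (SE 0.156, adjusted p = 3.71e-06), 2.58-fold, in WT and 1.54 (SE 0.157, adjusted p = 5.69e-07), 2.91-fold, in AS mice. In the continuous hippocampus Plin5 had 8 to 33 counts per library and was not called, with a log2 fold change of 0.13 (95% interval -0.46 to 0.72) in WT and 0.51 (-0.02 to 1.05) in AS mice.

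The most abundant perilipin of liver, Plin2, which coats droplets in nearly all cells, fell in AS mice. AS livers had 330, 392, 384, 243 and 415 CPM with vehicle and 258, 257, 225, 171 and 177 CPM with CORT, and only the vehicle library L2, at 243 CPM, lay within the range of the CORT mice. This was a log2 fold change of -0.70 (SE 0.193, adjusted p = 0.0107). WT livers had 192 to 403 CPM with vehicle and 227 to 400 CPM with CORT, with a log2 fold change of 0.07 (SE 0.192, adjusted p = 0.845, 95% interval -0.30 to 0.45). The difference between the genotypes' responses was -0.77 (SE 0.272) and was not called (adjusted p = 0.494). In hippocampus Plin2 was 4.96 to 5.77 CPM in continuous WT vehicle mice and 3.34 to 4.94 CPM with CORT, a log2 fold change of -0.30 (adjusted p = 0.227), and in acute AS mice it was -0.30 (adjusted p = 0.131).

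Plin3, a perilipin that moves from the cytosol to young droplets, was not called for CORT in any set. Its log2 fold change was 0.20 in WT liver (SE 0.0935, adjusted p = 0.151), with 43.5 to 53.8 CPM in vehicle and 48.1 to 62.5 CPM in CORT mice. In all, 3 of 8 tested genes rose in WT liver and 0 fell, beside 18.6% of all 12273 genes called, and 3 rose and 1 fell in AS liver, beside 27.5%.

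Several markers of other liver cells were called lower with CORT in the same livers. The 5 markers of Kupffer cells, the macrophages of liver, summed to 107 to 196 CPM in vehicle and 52.9 to 79.3 CPM in CORT livers, with 4 of 5 called lower in each genotype, and blood markers to 243 to 574 and 124 to 328 CPM, with 2 of 5 called lower in WT and 4 of 5 in AS mice. Of the stellate cell markers 1 of 5 was called lower in WT and 3 of 5 in AS mice, of the liver endothelial markers 0 of 4 and 2 of 4, and of the general endothelial markers 1 of 4 and 2 of 4. The sums of these 3 lists overlapped between vehicle and CORT. The median general endothelial sum was lower with CORT in WT livers (115 and 101 CPM) and higher in AS livers (110 and 135 CPM). Median cholangiocyte sums were higher with CORT (8.44 and 10.9 CPM in WT, 9.35 and 10.8 CPM in AS livers). So were those of hepatocyte markers (93914 and 105536 CPM in WT, 102789 and 129740 CPM in AS livers). The part of these cells in the liver results was not tested.

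Pnpla2, the gene of the lipase itself, rose in hippocampus in all 4 comparisons. In acute WT mice it was 25.9 to 36.1 CPM with vehicle (median 28.0) and 48.0 to 69.5 CPM with CORT (median 53.7). In acute AS mice it was 16.8 to 29.0 CPM (median 24.6) and 32.9 to 48.0 CPM (median 39.2). H1, at 36.1 CPM, stood above the other WT vehicle mice, and still no vehicle library reached a CORT library of its genotype. The log2 fold change was 0.94 (SE 0.111, adjusted p = 5.14e-06) in WT and 0.72 (SE 0.113, adjusted p = 0.000125) in AS mice.

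After 5 days, Pnpla2 was 21.2, 18.6, 19.7 and 16.2 CPM in WT vehicle mice and 26.6, 30.1, 27.1, 24.8 and 22.3 CPM in WT CORT mice. AS mice had 15.7 to 19.2 CPM with vehicle and 23.96 to 33.4 CPM with CORT, again without overlap. The log2 fold change of 0.47 (SE 0.103, adjusted p = 0.0176) in WT and 0.69 (SE 0.104, adjusted p = 0.000521) in AS mice was called, but H9 (27.8 CPM) and H13 (25.04 CPM) lay within the CORT range, and with them the values were 0.38 (adjusted p = 0.181) and 0.54 (adjusted p = 0.0596). The WT call was also lost without H6 or without H17 (adjusted p = 0.0636 and 0.0530). These were the libraries of the fit with the most choroid plexus marker RNA, 1212 and 2796 CPM beside 431 CPM or less in the other 16, and its part in the result was not tested.

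Liver Pnpla2 overlapped between vehicle and CORT. WT mice had 84.0, 60.6, 53.8, 95.5 and 53.3 CPM with vehicle and 66.0, 59.6, 65.5, 86.9 and 65.9 CPM with CORT. CORT gave a log2 fold change of -0.01 (95% interval -0.33 to 0.30, adjusted p = 0.969) in WT and 0.11 (-0.21 to 0.42, adjusted p = 0.669) in AS mice. In each group, the livers with the highest Pnpla2 were also those with the lowest Plin2. This pattern was noticed in these data, and the relation over all livers was not tested. L4 and L1 had the highest Pnpla2 of the WT vehicle mice (95.5 and 84.0 CPM) and the lowest Plin2 (192 and 229 CPM), L2 of the AS vehicle mice had 89.3 CPM Pnpla2 and 243 CPM Plin2, and L3 of the WT CORT mice 86.9 and 227 CPM. In AS CORT mice L8 and L7 had the highest Pnpla2 (79.9 and 74.8 CPM) and the lowest Plin2 (177 and 171 CPM).

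The cofactors were called in liver and not in hippocampus. Abhd5, the activator, was 26.8, 27.9, 32.4, 28.8 and 37.1 CPM in WT vehicle livers and 48.6, 47.4, 41.7, 35.5 and 45.8 CPM in WT CORT livers, with only L3 (CORT) and L6 (vehicle) overlapping. It rose by 0.52 on the log2 scale (SE 0.0981, adjusted p = 0.00078). In AS livers 27.9 to 35.7 CPM with vehicle and 36.2 to 42.7 CPM with CORT did not overlap, and the log2 fold change of 0.22 (SE 0.0979) was not called (adjusted p = 0.0953). The difference between the genotypes was -0.29 (adjusted p = 0.607). In the continuous hippocampus Abhd5 was 15.9 to 19.1 CPM in WT vehicle and 13.8 to 15.5 CPM in WT CORT mice, with log2 fold changes of -0.27 (WT, adjusted p = 0.122) and -0.26 (AS, adjusted p = 0.128). Without the AS vehicle library H14 both were called, at -0.27 (WT, adjusted p = 0.0451) and -0.36 (AS, adjusted p = 0.013).

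G0s2, the inhibitor, was 54.0, 44.5, 39.6, 19.9 and 32.5 CPM in WT vehicle livers and 68.2, 53.8, 68.6, 59.9 and 66.7 CPM in WT CORT livers. AS livers had 32.9, 46.9, 40.3, 28.2 and 42.1 CPM with vehicle and 56.8, 112, 67.5, 41.0 and 36.4 CPM with CORT. The log2 fold change of 0.74 in WT mice (SE 0.261, adjusted p = 0.0552) just missed the threshold and the similar one of 0.72 in AS mice (SE 0.261, adjusted p = 0.0466) just passed it, with a difference of -0.02 (95% interval -0.74 to 0.70). Without L16, whose 112 CPM was the highest, the AS value was 0.41 (adjusted p = 0.19), and leaving out 13 of the 20 mice in turn lost the call. In hippocampus G0s2 was not called and its log2 fold changes lay between -0.18 and 0.08.

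**Figure D3:**
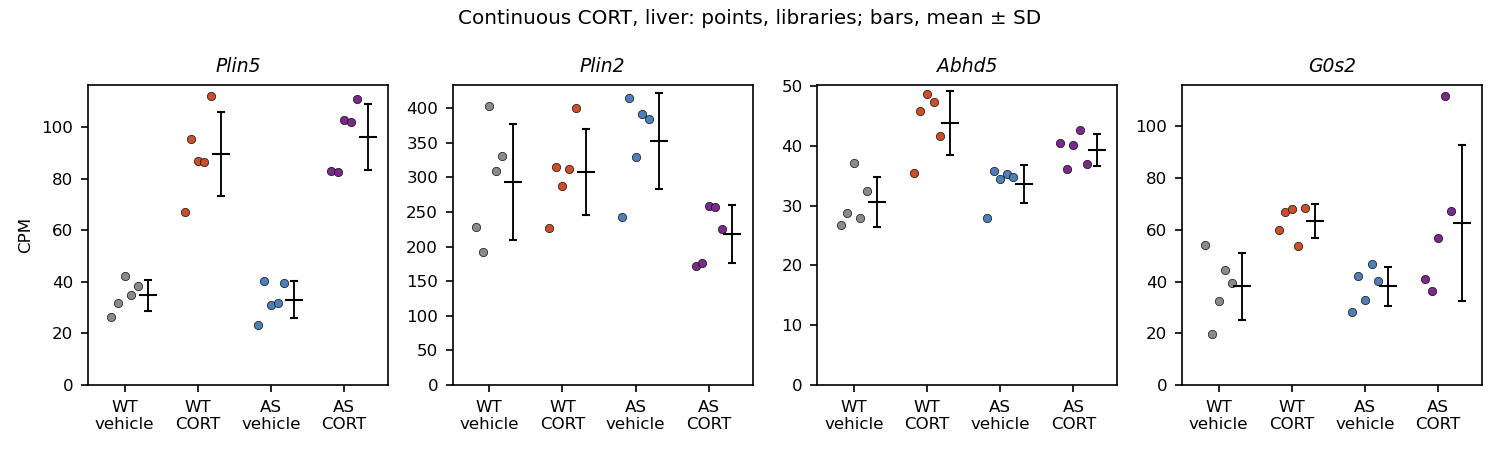
Plin5, Plin2, Abhd5 and G0s2 in liver (CPM) by group; points are libraries and bars are mean ± SD (n = 5). Plin5 separates CORT from vehicle in both genotypes, Plin2 is lower with CORT in AS mice, and G0s2 of AS CORT mice spreads from 36.4 to 112 CPM.

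Among the CIDE genes, Cidea was called in acute AS hippocampus, where it ranged from 4.93 to 7.20 CPM with vehicle and from 7.25 to 9.36 CPM with CORT. Its log2 fold change was 0.46 (SE 0.15, adjusted p = 0.0341) in AS and 0.22 (SE 0.152, adjusted p = 0.656) in WT mice. This call was lost when any 1 of 7 mice was left out and with a term for 2 classes of low-quality read number among the libraries (0.38, adjusted p = 0.737). The WT CORT library H8, at 11.8 CPM, stood above the other WT CORT mice (5.39 to 7.13 CPM), and without it the WT log2 fold change was 0.02. Cideb in the continuous hippocampus was 4.13, 3.11, 4.44 and 2.69 CPM in WT vehicle mice and 1.61, 2.17, 2.46, 2.73 and 2.10 CPM in WT CORT mice. Its log2 fold change was -0.70 (SE 0.194, adjusted p = 0.0586) in WT and -0.47 (SE 0.195, adjusted p = 0.245) in AS mice, neither of them called. The WT value was called in 3 of 18 fits that left out 1 mouse, those without H3, H6 or H16 (-0.79, -0.81 and -0.70, adjusted p = 0.0485, 0.0377 and 0.0341). In acute AS hippocampus it was -0.29 (adjusted p = 0.114), and without H18 -0.36 (adjusted p = 0.0416). In liver Cideb had log2 fold changes of 0.10 and 0.09.

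**Figure D4:**
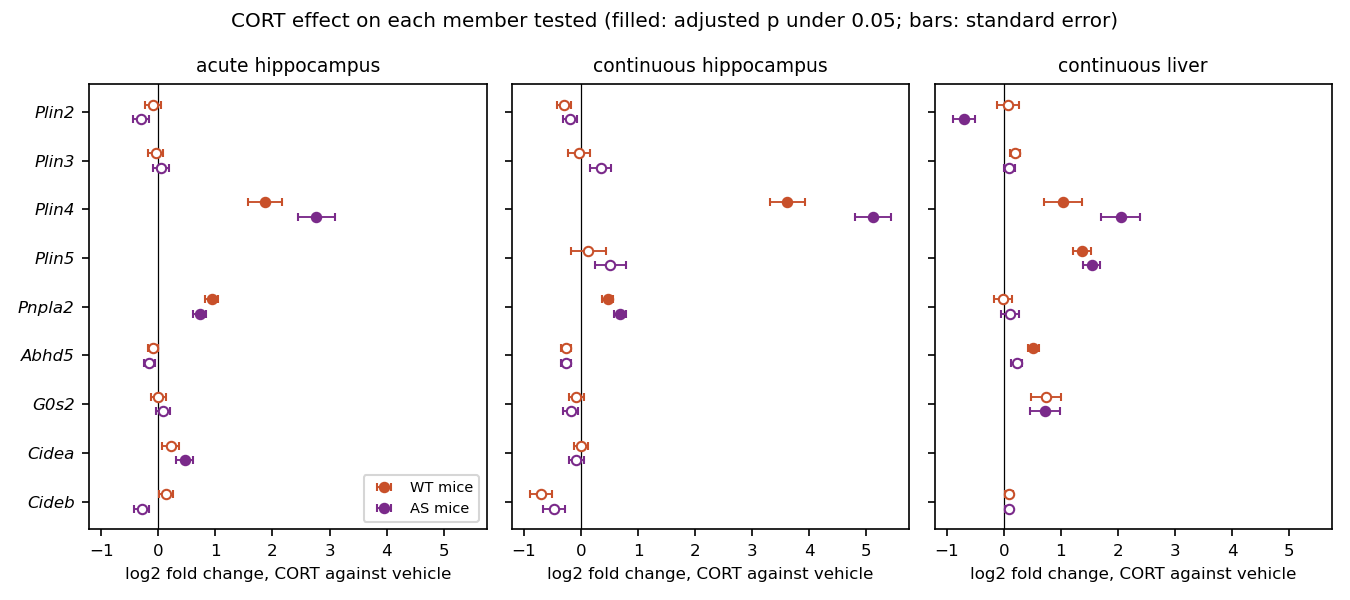
Log2 fold change of CORT against vehicle for each gene tested, in WT and AS mice; bars are standard errors and filled points have an adjusted p under 0.05. Plin4 is raised in all 3 sets, Pnpla2 in hippocampus, and Plin5, Abhd5 (WT) and G0s2 (AS) in liver, where Plin2 is lower in AS mice.

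The CORT effect was compared directly between the tissues of the continuous experiment, as liver minus hippocampus averaged over the genotypes. Of the 10 genes in this fit 4 had a larger and 2 a smaller log2 effect in liver, beside 19.9% of all 15937 genes called. Plin4 was raised less in liver by 2.79 on the log2 scale (difference -2.79, SE 0.324, adjusted p = 5.36e-08), as was Pnpla2 (-0.50, SE 0.146, adjusted p = 0.0116). With H9 and H13 the Pnpla2 difference was -0.40 (adjusted p = 0.0724). Plin5 was raised more in liver (difference 1.16, SE 0.25, adjusted p = 0.000815), as were G0s2 (0.89, SE 0.245, adjusted p = 0.00797) and Abhd5 (0.66, SE 0.0951, adjusted p = 2.6e-06). For Cideb the difference of 0.70 (SE 0.128, adjusted p = 9.98e-05) came from values below 0 in hippocampus beside values near 0 in liver. Plin2 and Plin3 differed by -0.03 (95% interval -0.40 to 0.33) and 0.02 (-0.26 to 0.31). Cidea was at or under the floor in liver and Cidec in all but 1 of the hippocampal libraries (H20, 5 counts), and no difference of their effects is given.

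Within hippocampus, part of the spread between mice of one group went along with the level of oligodendrocyte markers, a pattern noticed in these data. The 5 markers summed to 1625 to 5667 CPM in the acute and 2010 to 6188 CPM in the continuous libraries. In acute WT CORT mice, H11 and H9 had the most marker RNA (5667 and 4255 CPM) and the most Plin4 (45.6 and 43.6 CPM), and H8 the least of both (1879 and 20.02 CPM). The study names H8 as the mouse behind most of a main axis of variation among its acute hippocampi, and kept it. In acute AS CORT mice H21 was highest in both (3216 and 38.4 CPM) and H23 lowest (1625 and 16.5 CPM). In a fit with the log2 marker level as a covariate, chosen after seeing these values, the Plin4 level was 1.07 higher on the log2 scale per doubling of the marker level in the acute libraries (SE 0.154, adjusted p = 2.04e-05) and 0.73 higher in the continuous libraries (SE 0.129, adjusted p = 0.000841).

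Plin3 was also higher where the markers were higher, with smaller slopes of 0.35 (SE 0.0908, adjusted p = 0.0212) and 0.53 (SE 0.0585, adjusted p = 3.36e-06). Pnpla2 had slopes of 0.27 (SE 0.0793, adjusted p = 0.0439) and 0.18 (SE 0.0641, adjusted p = 0.0952). In the acute libraries 3 of the 8 tested genes had a called slope, beside 4.7% of all genes, and in the continuous libraries 4 of 9 (Plin3, Plin4, Plin5 and Abhd5), beside 10.2%. Cidea, Cideb and G0s2 had slopes between -0.23 and 0.02, none called. H9 and H13, left out of the fits, had 18374 and 14610 CPM of these markers, with 41.8 and 60.6 CPM Plin3 and 5.51 and 6.39 CPM Plin4, all above the other vehicle mice, and with 3.24 and 1.33 CPM Cidea, below all others. The median marker level was 3219 CPM in acute WT vehicle and 3233 CPM in WT CORT mice, and 3492 CPM in acute AS vehicle and 2308 CPM in AS CORT mice. In the continuous set it was 4508 and 2739 CPM in WT and 4888 and 4076 CPM in AS mice. With the covariate the CORT effect on Plin4 was 1.98 in acute WT, 3.43 in acute AS, 3.83 in continuous WT and 5.12 in continuous AS mice, and those on Pnpla2 were 0.96, 0.88, 0.52 and 0.69.

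**Figure D5:**
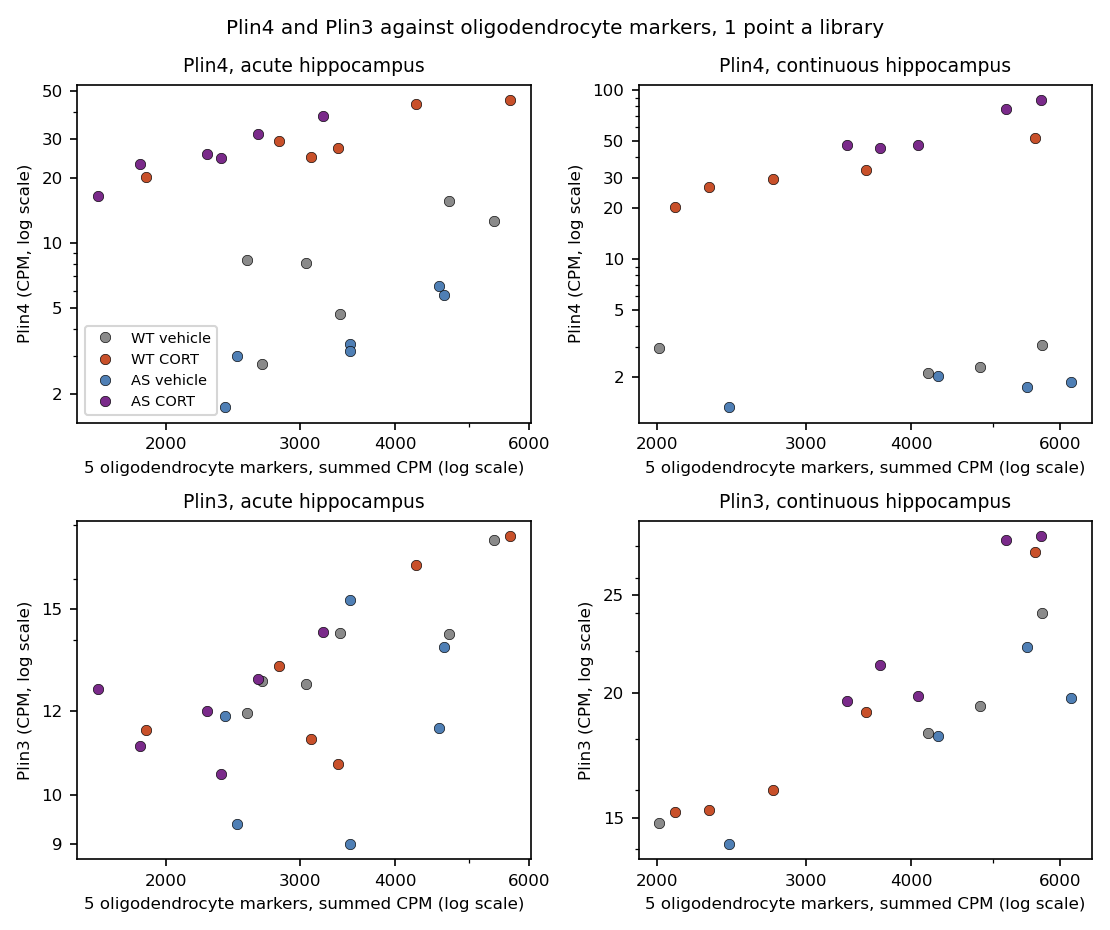
Plin4 (upper row) and Plin3 (lower row) against the summed CPM of 5 oligodendrocyte markers in acute (left) and continuous (right) hippocampus, all on log scales; points are libraries, coloured by group. Within most groups both genes are higher where the markers are higher, and for Plin4 the CORT libraries lie above the vehicle libraries at like marker levels.

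Differences between the genotypes were compared within vehicle and within CORT mice. The acute libraries fall into 2 ranges of reads set aside for low alignment quality, 16 libraries with 1877 to 2237 and 8 with 2640 to 2850 reads, and the latter were all 6 AS CORT mice and the AS vehicle mice H17 and H18, so that among CORT mice the division and the genotype cannot be told apart. With CORT, Pnpla2 was lower in AS than WT mice (log2 difference -0.51, SE 0.11, adjusted p = 0.00188), with all 6 AS mice below the lowest WT mouse (48.0 CPM), though H21 of the AS mice reached the same rounded value, and so was Cideb (-0.51, SE 0.128, adjusted p = 0.00564), at 2.46 to 3.06 CPM in AS and 3.42 to 4.96 CPM in WT mice. These were 0 genes higher and 2 lower of 8, beside 24.9% of all genes called (3645 genes, and 0 with a covariate for the division). With a covariate for the division the differences were -0.0043 (adjusted p = 0.999) for Pnpla2 and -0.39 (adjusted p = 0.938) for Cideb. Plin4 differed by -0.26 (SE 0.275, adjusted p = 0.52), which turned to 0.65 with this covariate and to 0.34 with that for the oligodendrocyte markers. In AS and WT CORT mice, neuron markers summed to 9722 to 11674 and 11577 to 13424 CPM, and endothelial markers to 119 to 135 and 128 to 175 CPM. Oligodendrocyte markers summed to 1625 to 3216 and 1879 to 5667 CPM, and astrocyte markers to 1136 to 1251 and 1056 to 1226 CPM. The part of these cells in the genotype differences was not tested.

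With acute vehicle, 0 of 8 genes were called, beside 0.157% of all genes, and 2 were below an unadjusted 0.05. Plin4 was lower in AS mice by a log2 difference of -1.15 (SE 0.344, adjusted p = 0.203), and the call was reached with the oligodendrocyte covariate (-1.10, adjusted p = 0.017). Pnpla2 was lower by -0.30 (adjusted p = 0.351), with H17 and H18, at 16.8 and 20.1 CPM, below the other 10 vehicle mice. The interaction of CORT and genotype was called for 0 of 8 genes (4.49% of all genes), with 0.89 (SE 0.441, adjusted p = 0.218) for Plin4 and -0.21 (SE 0.158, adjusted p = 0.431) for Pnpla2. The 656 genes behind this share became 1 with the division covariate, 0 with GC and length offsets, with the oligodendrocyte covariate or with H17 and H18 only, and were 1226 with DESeq2's Wald test and 3353 with voom.

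In the continuous hippocampus, 0 of 9 genes differed between the genotypes with vehicle (0.0134% of all genes) or with CORT (0.0401%), and the interaction was called for 0 genes in all (0%), with 561 of 14949 genes under an unadjusted 0.05. Plin4 with CORT was 0.90 higher in AS mice (SE 0.212, adjusted p = 0.18) on the log2 scale and its interaction was 1.501 (SE 0.46, adjusted p = 1). AS CORT mice had 45.3 CPM or more, and WT CORT mice 33.6 CPM or less except H15 at 52.2 CPM. H15 also had the most oligodendrocyte RNA of the WT CORT mice (5608 CPM), and without it the difference was 1.14 (adjusted p = 0.0299). Pnpla2 differed by 0.14 (adjusted p = 0.622) and Plin5 by 0.72 (SE 0.263, adjusted p = 0.38) with CORT. In liver 0 of 8 genes were called with vehicle (0.0163% of all genes), with CORT (0.277%) or for the interaction (0%, with 995 of 12273 genes under an unadjusted 0.05). Plin2 with CORT was lower in AS livers by -0.50 (SE 0.192, adjusted p = 0.46), and the Plin4 interaction was 1.01 (SE 0.475, adjusted p = 0.604), and 0.59 (adjusted p = 0.832) without the WT vehicle liver L4.

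The genes whose log2 CPM followed Plin4 most closely over the 24 acute and 18 continuous hippocampal libraries, among 14418 compared, were Hif3a (mean Pearson r of 0.955), Gm19439 (0.955), Cdkn1a (0.933), Pnpla2 (0.921) and Tmem52 (0.918). For Pnpla2 they were Gm19439 (0.936), Adipor2 (0.924), Plin4 (0.921), Hif3a (0.919) and Sdc4 (0.910). These coefficients are across libraries that share the CORT contrast and are given as a description. For the other members r with Plin4, in the acute and then the continuous libraries, was 0.27 and 0.41 (Plin3), 0.39 and -0.21 (Cidea), 0.14 and -0.38 (G0s2), -0.29 and -0.56 (Plin2), -0.15 and -0.68 (Cideb), and -0.0789 and -0.65 (Abhd5). No difference between the sets was tested.

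Other genes of lipid storage and use were followed from 3 lists. Counts in acute hippocampus stand beside 1.48% (WT) and 17.9% (AS) of all genes, the latter with the dependence on the division given above. Of 8 lipase and cofactor genes tested, 1 rose in WT and 2 rose and 1 fell in AS mice. Lipe, the hormone-sensitive lipase that acts after PNPLA2, rose by a log2 fold change of 0.38 (adjusted p = 0.0114) in WT and 0.25 (adjusted p = 0.0367) in AS mice. Of 17 genes of droplet assembly and triglyceride synthesis, 0 changed in WT mice and 2 rose and 3 fell in AS mice, with Acsl3, an acyl-CoA synthetase of nascent droplets, at 0.28 (adjusted p = 0.00108), Dgat2, which makes triglycerides, at 0.63 (adjusted p = 0.0144) and the seipin gene Bscl2 at -0.24 (adjusted p = 0.0131). Of 15 genes of fatty acid supply, use and regulation, 2 rose and 1 fell in WT and 4 rose in AS mice. Ucp2, a mitochondrial carrier, rose by 0.71 (WT, adjusted p = 0.000153) and 0.78 (AS, adjusted p = 2.21e-05), and Angptl4, an inhibitor of lipoprotein lipase, by 0.77 and 0.81 (adjusted p = 0.0354 and 0.00566). Pdk4, which restrains glucose oxidation, was called in AS mice (0.65, adjusted p = 0.000672), and the lipoprotein receptor gene Vldlr fell in WT mice (-0.25, adjusted p = 0.0161).

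In the continuous hippocampus, 0 of 8, 2 of 17 and 1 of 15 genes of these lists were called in WT and 0, 1 and 3 in AS mice, beside 2.92% and 3.77% of all genes. Acsl3 rose in both genotypes (0.24 and 0.34, adjusted p = 0.014 and 0.000567). Cav1 (-0.62, adjusted p = 0.00267) and Cpt1a (-0.40, adjusted p = 0.0182) fell in WT mice, while in AS mice Ucp2 (0.54, adjusted p = 0.0158) and Pdk4 (0.85, adjusted p = 0.0227) rose and Lpl, the lipoprotein lipase, fell (-0.47, adjusted p = 0.0254). The medians of the 3 lists lay between 0.00 and 0.09 in both genotypes.

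In liver, where 18.6% (WT) and 27.5% (AS) of all genes were called, 0 of 9 lipase genes were called in either genotype. Of 21 assembly and synthesis genes 2 rose and 4 fell in WT and 6 rose and 3 fell in AS mice, and of 16 supply and regulatory genes 5 rose and 5 fell in WT and 4 rose and 3 fell in AS mice. Acot1, a fatty acyl-CoA thioesterase, rose most clearly (1.67 in WT and 1.55 in AS mice, adjusted p = 0.000597 and 0.000752), with Lpin2, a phosphatidate phosphatase of triglyceride synthesis (0.89 and 0.75), and Foxo1 (0.41 and 0.79). Lpl fell (-1.67 and -1.80, adjusted p = 0.00123 and 0.000546), as did Fitm1, which promotes droplet formation (-1.03 and -1.57), and the sterol esterification genes Soat2 (-0.59 and -0.40) and Soat1 (-0.71 and -0.99).

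Plin4, Abhd5, G0s2, Cidea and Cideb each overlap a gene on the opposite strand (Hdgfl2, A730085K08Rik, Lamb3, B430212C06Rik and Nop9). The libraries were stranded, but whether counting used strand is not given in the sources used here, so that reads of these pairs may not be separated.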

How the data were processed

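Hippocampal and liver mRNA libraries were made with a stranded kit and sequenced as 100 bp paired ends. The authors deposited raw counts of reads per Ensembl gene, made with STAR on mm10 and HTSeq-count; the annotation release and the strand setting are not given in the sources used here. Counts that the tables assign to no gene (11.74% to 23.29% of a library) were left out. The counts were tested with edgeR 4.0.16 (quasi-likelihood F test, TMM, R 4.3.3), with a coefficient per group and a filter that kept genes above 20 normalized counts for 3 or more mice of any group, and adjusted over all genes tested (Benjamini-Hochberg, 0.05). Each tissue and experiment was fitted alone, and liver with continuous hippocampus jointly for the tissue difference. The joint fit treated the libraries as independent, although the study took both tissues from the same mice. CPM levels are scaled to the reads on genes that passed the filter, times the TMM factor of the library. The scale of the floors is the reads on all genes. Floors cover counting error only. Tested on simulated data, the fit recovered 96%, 93% and 87% of changed genes for CORT in WT mice. The shares are for 14611 acute hippocampal, 14949 continuous hippocampal and 12273 liver genes, in this order. They hold only for the size of change placed in those data. Recovery of smaller changes was not tested, and a gene that was not called is not thereby shown to be unchanged. Positions are from GENCODE on GRCm38, promoters from RefSeq.

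The members and gene lists were chosen with earlier results of these data known. Named beside the members were, per set, at most 8 list genes (called in both genotypes first, then by adjusted p), the 5 genes most alike to Plin4 and to Pnpla2, Ube3a, Fkbp5, Tsc22d3 and cell type markers. A list gene that this rule selects in liver is not reported here. Intervals of 95% follow from the SE under a normal distribution. Alternatives were DESeq2 1.42.0 (test and size factors), limma 3.58.1 (voom), sva 3.50.0 (1 surrogate variable), upper-quartile scaling, no filter, GC and length offsets, H9 and H13 included, covariates for the library division or oligodendrocyte markers, and each library left out. Nothing states that mice of a group were processed separately, so p-values measure the spread between these samples.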

Additional observations from a re-analysis of the deposited data

Results flagged for a closer look

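In 6 of 100 groups of 4 to 6 libraries, 1 value stood apart from the rest of its group by Dixon's criterion, and chance alone gives about 1 in 20. Pnpla2 was 36.1 CPM in the acute WT vehicle hippocampus H1 (others 25.9 to 29.6). Cidea was 11.8 CPM in the acute WT CORT hippocampus H8 (others 5.39 to 7.13) and 9.20 CPM in the continuous WT vehicle hippocampus H17 (others 7.95 to 8.12). In liver, Plin4 was 4.48 CPM in the WT vehicle mouse L4 (others 1.08 to 2.02), Pnpla2 was 86.9 CPM in the WT CORT mouse L3 (others 59.6 to 66.0) and Abhd5 was 27.9 CPM in the AS vehicle mouse L2 (others 34.4 to 35.7).

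The log2 CORT effect differed between liver and continuous hippocampus in edgeR's joint fit for 6 genes. As liver minus hippocampus it was -2.79 for Plin4 and -0.50 for Pnpla2, and 1.16 for Plin5, 0.89 for G0s2, 0.70 for Cideb and 0.66 for Abhd5.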

How the results depend on the processing

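Of 576 values of single genes recalculated under alternatives other than leaving out 1 mouse, 534 kept their direction and side of the threshold, 13 lost and 19 gained a call and 10 changed sign. The calls for CORT against vehicle of Plin4 and Pnpla2 in acute hippocampus, Plin4 in continuous hippocampus and Plin5 in liver were kept under every alternative run and without any single mouse. The causes of the changes were not tested.

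Sign changes concerned differences that were not called. The acute Plin4 difference between AS and WT CORT mice became 0.65 with the division covariate and 0.34 with the oligodendrocyte covariate, and the acute Pnpla2 interaction 0.15 with the division covariate and 0.14 when H17 and H18 alone stood for the AS vehicle mice. For liver Pnpla2, 1 surrogate variable gave 0.0922 (CORT in WT; 0.0666 with voom), -0.0317 (CORT in AS), 0.11 (AS against WT, vehicle), -0.015 (AS against WT, CORT) and -0.12 (interaction). With single mice left out these ran from -0.11 to 0.13 (CORT in WT), -0.22 to 0.0599 (vehicle), -0.0097 to 0.14 (CORT) and -0.0214 to 0.26 (interaction), and Plin2 for CORT in WT liver from -0.0466 to 0.21.

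The number of the 10 genes called also changed. In acute hippocampus it was 5 with voom for CORT in AS mice (where Cidea was lost with the division covariate), 1 with H17 and H18 only or with the oligodendrocyte covariate for the genotypes with vehicle, 0 with the division covariate for the genotypes with CORT, and 1 with voom for the interaction. In continuous hippocampus it was 4 with 1 surrogate variable and 1 with H9 and H13 for CORT in WT mice, and 4 with the oligodendrocyte covariate and 1 with H9 and H13 for CORT in AS mice. Without single mice it ran from 1 to 3 (CORT in WT), 2 to 3 (CORT in AS) and 0 to 1 (genotypes with CORT) there, from 2 to 4 (CORT in AS) and 2 to 3 (genotypes with CORT) in acute hippocampus, and from 2 to 4 (WT) and 3 to 4 (AS) for CORT in liver. In liver it was 1 with 1 surrogate variable for the genotypes with CORT. With the mouse number as a replicate block, the tissue difference was -2.73 for Plin4 and -0.52 for Pnpla2, with 6 genes called as without the block. Over all genes, 2513 were called with the block and 3176 without it. Hippocampus and liver of the same number did not deviate together (18 pairs, r from -0.0814 to 0.0762), and 0 correlated best with their own number. The labels do not state whether a number names the same mouse in both tissues, and these values do not decide it. Depth limits Cidec, Cidea in liver and Plin5 in hippocampus most.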
